A study of Mus musculus with 7 samples.

Results

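The genes described here are 10 genes of extracellular matrix remodelling, out of 18193 genes read by Affymetrix arrays in macrophages derived from mouse bone marrow. They were chosen by name: Mmp8, Mmp9, Mmp12, Mmp13, Mmp14, Timp1, Adamts4, Lox, Thbs1 and Fn1. All 10 had at least 1 probe set (the group of short probes that reads 1 transcript) with their single gene symbol, and there were 18 such probe sets. The brightest probe set of a gene, by its mean over all arrays, was used, and the others are given beside it.

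There were 7 arrays, each from a different condition, with 1 array per group. A first period of 24 h was spent without ligand (naive) or with MDP or Pam3CSK4 (pretreated), and a second of 3 h without ligand, with MDP or with Pam3CSK4. MDP is muramyl dipeptide, a piece of bacterial cell wall sensed inside the cell, and Pam3CSK4 is a synthetic lipopeptide sensed at the cell surface by Tlr2 with Tlr1. The labels give 10 mg/ml for MDP and 1 mg/ml for Pam3CSK4 in both periods, units that could not be checked here. There were 3 naive groups (unstimulated, with MDP and with Pam3CSK4) and 4 pretreated ones, written as the first ligand before the second: MDP before MDP, MDP before Pam3CSK4, Pam3CSK4 before MDP and Pam3CSK4 before Pam3CSK4. No strain, sex or age is given in the labels used here. The study asked which genes each ligand induces at least 3-fold and which of them are more than 2-fold lower in pretreated cells. With 1 array per group no difference below has a replicate check or a test, and a difference describes 2 arrays. Since pretreated cells always received a second ligand, what remained from the 24 h and what the last 3 h added cannot be told apart. In such bulk samples fewer cells expressing a gene and less RNA per cell cannot be told apart either.

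Matrix metalloproteinases are zinc-dependent enzymes that cut collagens, elastin and other proteins around cells, most of them secreted and a few, such as Mmp14, held in the cell membrane. Their activity is held back by tissue inhibitors such as Timp1, while Lox crosslinks collagen and elastin and so stiffens the matrix that these enzymes take apart. Macrophages are a main source of several of these enzymes in inflamed tissue.

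The 10 genes did not follow the ligands as a block. Mmp13, Adamts4 and Timp1 were highest in the cells that met Pam3CSK4 for the first time, with or without MDP before it, and stood near or closer to their unstimulated level after Pam3CSK4 pretreatment. Mmp9, Lox, Thbs1 and, by a small margin, Mmp8 were highest after Pam3CSK4 pretreatment, whichever ligand came second. Mmp14 was high in every culture that had met Pam3CSK4 and was the only one of the 10 past 3-fold with MDP in naive cells. Mmp12 was lowest after Pam3CSK4 pretreatment, and Fn1 varied least (a range of 0.34 on the log2 scale). These groupings were made after the values were seen and are descriptions.

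**Figure D1:**
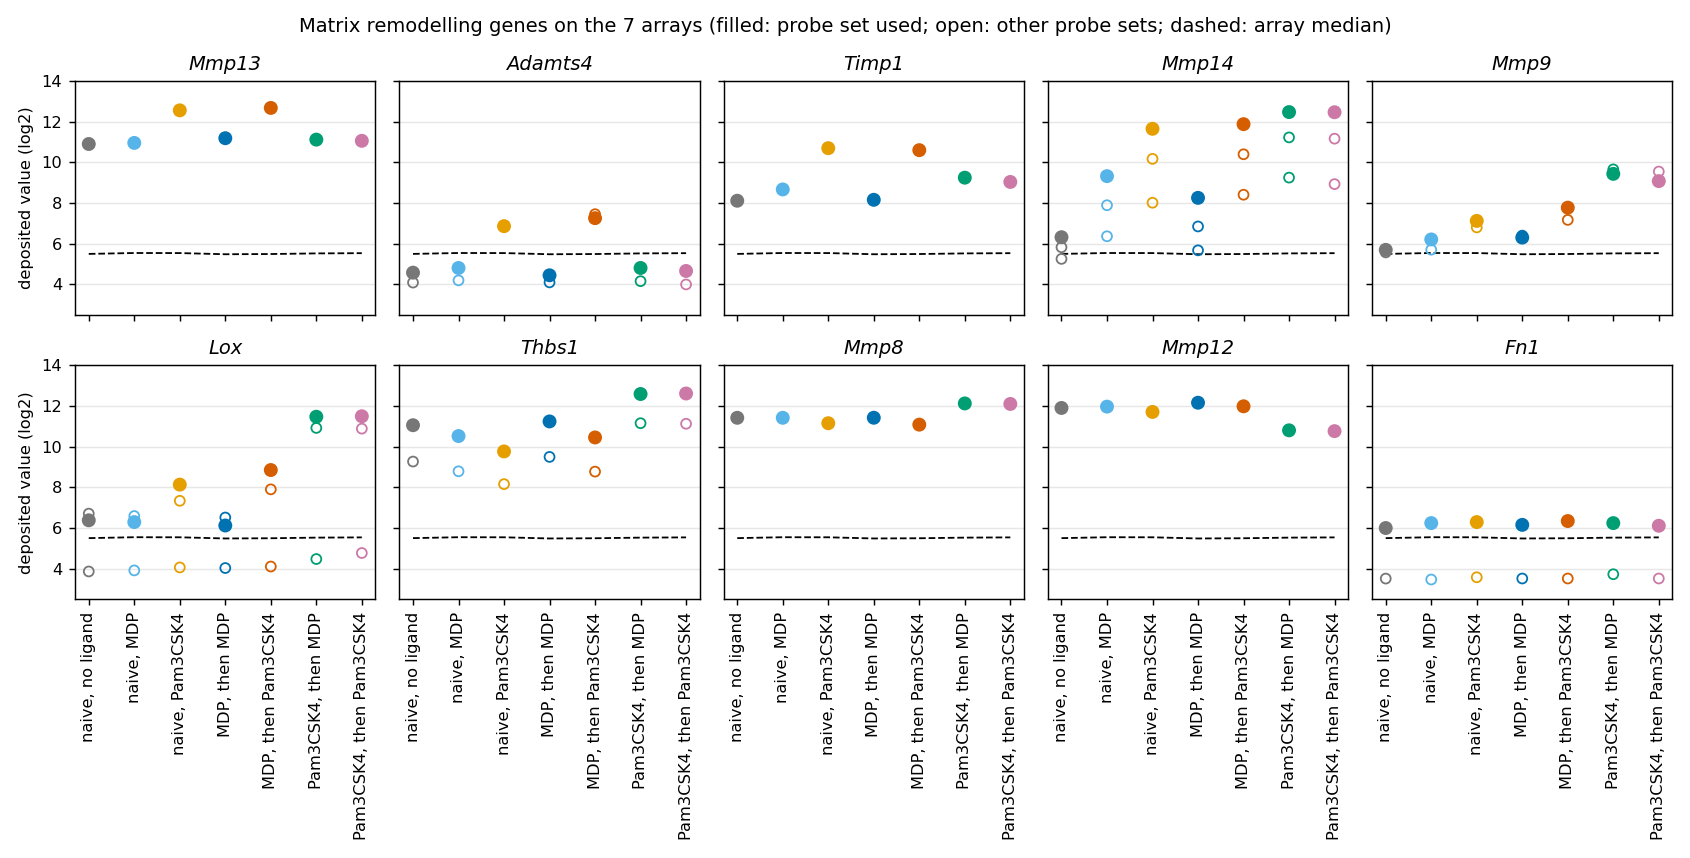
Deposited values (log2) of the 10 genes on the 7 arrays, 1 panel per gene, with filled points for the probe set used, open points for other probe sets of the gene and a dashed line for the median of all probe sets on each array. Mmp13, Adamts4 and Timp1 peak on the naive and MDP-pretreated arrays given Pam3CSK4, while Mmp9, Lox and Thbs1 peak on both arrays pretreated with Pam3CSK4.

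The sequence upstream of the start site is shown for 2 genes of the first pattern and 2 that were highest after Pam3CSK4 pretreatment, so that genes moving together and apart can be read side by side. Each run is the 250 bases before the start from RefSeq (GRCm38.p6), read 5′ to 3′ on the gene's strand. Lox was left out of the promoter search by rule. Of the other genes 5 had an entry in the promoter table, and Mmp12, with 2 start sites, is the one of these not printed. Capitals mark matches on either strand to the AP-1 motif TGANTCA or the ETS motif AGGAAG.
Mmp13 (chr9:7272264-7272513, plus strand): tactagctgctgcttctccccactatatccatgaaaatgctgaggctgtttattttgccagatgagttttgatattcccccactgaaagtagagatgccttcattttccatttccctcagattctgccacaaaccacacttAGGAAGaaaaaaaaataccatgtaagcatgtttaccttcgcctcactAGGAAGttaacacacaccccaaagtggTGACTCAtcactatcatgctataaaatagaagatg
Timp1 (chrX:20869916-20870165, plus strand): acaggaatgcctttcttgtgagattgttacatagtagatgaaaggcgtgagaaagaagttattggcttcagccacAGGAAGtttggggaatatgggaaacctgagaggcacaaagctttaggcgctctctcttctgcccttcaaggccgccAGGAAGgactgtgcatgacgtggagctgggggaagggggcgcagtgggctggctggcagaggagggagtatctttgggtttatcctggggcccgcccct
Mmp14 (chr14:54431348-54431597, plus strand): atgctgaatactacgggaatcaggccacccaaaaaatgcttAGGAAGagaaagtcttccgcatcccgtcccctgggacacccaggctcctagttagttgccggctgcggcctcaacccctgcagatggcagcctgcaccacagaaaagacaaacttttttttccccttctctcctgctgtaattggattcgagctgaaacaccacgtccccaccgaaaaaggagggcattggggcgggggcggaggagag
Mmp8 (chr9:7558179-7558428, plus strand): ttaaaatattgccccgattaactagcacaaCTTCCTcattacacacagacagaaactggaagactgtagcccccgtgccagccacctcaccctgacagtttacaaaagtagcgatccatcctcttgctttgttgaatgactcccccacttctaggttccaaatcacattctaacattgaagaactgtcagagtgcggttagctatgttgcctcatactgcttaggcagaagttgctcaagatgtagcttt
Mmp13 held 1 AP-1 match, 35 to 29 bases before the start, and 2 ETS matches, while Timp1 held 2 ETS matches and no AP-1 match. Mmp14 and Mmp8 each held 1 ETS match and no AP-1 match, the match of Mmp8 lying on the opposite strand. Over 32536 distinct windows of the same length, 6.73% held the AP-1 motif and 29.6% the ETS motif, and no match of one motif overlapped a match of the other in these 4 runs. The STAT motif TTCNNNGAA (7.04% of windows) and the NF-kB motif (7.28%) matched in none of the 4. These matches are letters in a short window and show no binding.

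Collagenase 3, encoded by Mmp13, was already well above the array median without ligand. Its values were 10.90 in naive unstimulated cells, 10.96 with MDP and 12.56 with Pam3CSK4, then 11.19 for MDP before MDP, 12.68 for MDP before Pam3CSK4, 11.12 for Pam3CSK4 before MDP and 11.06 for Pam3CSK4 before Pam3CSK4. Only the 2 arrays on which Pam3CSK4 followed something other than Pam3CSK4 were high, and the other 5 lay within 10.90 to 11.19. Naive cells given Pam3CSK4 were 3.15-fold over unstimulated, and cells given Pam3CSK4 after MDP 3.42-fold. A second exposure to Pam3CSK4 gave a level 2.82-fold lower than the first, or 1.11-fold over unstimulated.

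Adamts4, a secreted protease that cuts the cartilage proteoglycan aggrecan, was also high on those 2 arrays, at a level near background. In naive cells it was at 4.58 unstimulated, 4.81 with MDP and 6.86 with Pam3CSK4, and in pretreated cells at 4.45 (MDP before MDP), 7.26 (MDP before Pam3CSK4), 4.81 (Pam3CSK4 before MDP) and 4.66 (Pam3CSK4 before Pam3CSK4). It lay above the array median, which was between 5.48 and 5.55, on 2 arrays only, and a value below that median cannot be told from background. Counted from the median of the other array, it was therefore at least 2.57-fold over unstimulated with Pam3CSK4 in naive cells and at least 3.38-fold for MDP before Pam3CSK4, and at least 2.51-fold lower at a second exposure to Pam3CSK4 than at the first. The deposited values themselves gave 4.87-fold, 6.41-fold and 4.60-fold. Its second probe set was above the median on the same 2 arrays, with bounds of 2.62-fold, 3.87-fold and 2.56-fold for these comparisons.

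Timp1, the inhibitor that binds active metalloproteinases, followed the same pattern with a residue left after pretreatment. It was at 8.12 in naive unstimulated cells, 8.67 with MDP and 10.70 with Pam3CSK4, and at 8.16 for MDP before MDP, 10.60 for MDP before Pam3CSK4, 9.25 for Pam3CSK4 before MDP and 9.04 for Pam3CSK4 before Pam3CSK4. First contact with Pam3CSK4 thus gave the 2 highest values, and both arrays pretreated with Pam3CSK4 lay between these and the remaining 3. Timp1 was 5.99-fold over unstimulated in naive cells given Pam3CSK4, and 3.15-fold lower than that at the second exposure. Relative to naive cells given the same ligand, Pam3CSK4 pretreatment went with a higher value when MDP came second (0.58) and a lower one when Pam3CSK4 did (-1.66).

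Mmp14, the membrane-bound metalloproteinase that cuts collagen at the cell surface and activates other members of the family, had the widest range of the 10 at 6.15 on the log2 scale. It stood at 6.32 in naive unstimulated cells, 9.32 with MDP and 11.65 with Pam3CSK4. After MDP pretreatment it was at 8.26 with MDP and 11.88 with Pam3CSK4, and after Pam3CSK4 pretreatment at 12.47 with either ligand. Every stimulated array was above the unstimulated one, the 4 arrays from cells that had met Pam3CSK4 were the highest, and the MDP arrays lay between. At the second of 2 MDP exposures Mmp14 was 2.10-fold lower than at the first and still 3.82-fold over unstimulated, or at 1.13 on the log2 scale when its probe sets were averaged. This was the only one of the 10 genes past 2-fold in that comparison, and it lay close to the line, at -0.93 when its probe sets were averaged and -0.99 when 32 was added to the linear values. Pam3CSK4 did not leave it lower at the second exposure: Pam3CSK4 before Pam3CSK4 was 0.81 above naive cells given Pam3CSK4. The 2 other probe sets of Mmp14 had smaller steps over unstimulated. In naive cells they were at 2.07 and at least 0.87 for MDP, against 3.00 with the probe set used, and at 4.35 and at least 2.52 for Pam3CSK4, against 5.33. The bounds stand because the third probe set was below the array median without ligand. For Pam3CSK4 before Pam3CSK4 against naive cells given Pam3CSK4, the other probe sets were at 0.99 and 0.92, against 0.81. For Pam3CSK4 before MDP against naive cells given MDP they were at 3.33 and 2.88, against 3.15.

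Mmp9, gelatinase B, which degrades denatured collagen and basement membrane collagen, was close to background without ligand. In naive cells it was at 5.70 unstimulated, 6.21 with MDP and 7.12 with Pam3CSK4, and in pretreated cells at 6.30 (MDP before MDP), 7.77 (MDP before Pam3CSK4), 9.44 (Pam3CSK4 before MDP) and 9.08 (Pam3CSK4 before Pam3CSK4). Both arrays pretreated with Pam3CSK4 were clearly the highest, followed by first contact with Pam3CSK4. Naive cells given Pam3CSK4 were 2.68-fold over unstimulated, short of 3-fold, whereas the pretreated cells were 13.3-fold and 10.4-fold over it with MDP and Pam3CSK4 as second ligand. Against naive cells given the same ligand these were 9.35-fold and 3.88-fold higher. The other probe set gave 3.95 and 2.75 on the log2 scale for these 2 differences, against 3.22 and 1.96.

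Lox, lysyl oxidase, which crosslinks collagen and elastin, showed the largest difference of the 10 between Pam3CSK4-pretreated cells and naive cells given the same second ligand. It was at 6.38 in naive unstimulated cells, 6.29 with MDP, 8.13 with Pam3CSK4, 6.12 for MDP before MDP, 8.85 for MDP before Pam3CSK4, 11.47 for Pam3CSK4 before MDP and 11.49 for Pam3CSK4 before Pam3CSK4. MDP alone, given once or before MDP, left the value within 0.26 of unstimulated. Pam3CSK4-pretreated cells were 36.2-fold over naive cells when both received MDP and 10.3-fold when both received Pam3CSK4. The probe sets disagreed on first contact with Pam3CSK4, where the one used was at 1.75 over unstimulated and the second at 0.63. On the pretreatment difference the second gave 20.1-fold with MDP and 11.7-fold with Pam3CSK4, a smaller and a slightly larger value than the one used. The third was below the array median on all 7 arrays and gives no difference.

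Thbs1, thrombospondin 1, a matrix glycoprotein that binds Cd36 and Cd47 and can activate latent TGF-beta, was below its unstimulated level at first contact with Pam3CSK4 and above it after pretreatment with it. Mmp8 had the same signs with smaller differences. Thbs1 was at 11.05 in naive unstimulated cells, 10.52 with MDP and 9.76 with Pam3CSK4. In pretreated cells Thbs1 was at 11.24 (MDP before MDP), 10.45 (MDP before Pam3CSK4), 12.59 (Pam3CSK4 before MDP) and 12.61 (Pam3CSK4 before Pam3CSK4). The naive array with Pam3CSK4 was the lowest of the 7, and both arrays pretreated with Pam3CSK4 the highest. First contact with Pam3CSK4 gave 2.44-fold less than unstimulated, and pretreated cells given Pam3CSK4 had 7.20-fold more than naive cells given it. After MDP pretreatment Thbs1 was also above the naive level, by 0.72 with MDP and 0.69 with Pam3CSK4, both short of 2-fold. The second probe set ran in parallel, at -1.11 for naive cells with Pam3CSK4 and 2.97 for the second against the first exposure.

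Neutrophil collagenase, Mmp8, and the macrophage elastase Mmp12 had narrow ranges (1.04 and 1.40) and moved in opposite directions after Pam3CSK4 pretreatment. Mmp8 was at 11.42 in naive unstimulated cells, 11.42 with MDP, 11.15 with Pam3CSK4, 11.42 for MDP before MDP and 11.08 for MDP before Pam3CSK4, and at 12.12 and 12.10 after Pam3CSK4 pretreatment with MDP and Pam3CSK4. Mmp12 was at 11.90, 11.97, 11.71, 12.16 and 11.98 on the same 5 arrays and at 10.80 and 10.76 on the 2 pretreated with Pam3CSK4. On both genes these 2 arrays stood apart from the other 5. Against naive cells given the same ligand, Mmp8 was 0.71 and 0.95 higher with MDP and Pam3CSK4, short of 2-fold, while Mmp12 was at -1.17 with MDP, past 2-fold, and at -0.94 with Pam3CSK4, short of it.

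Fn1, fibronectin, was little above the array median on all 7 arrays, with a highest value of 6.34, and its second probe set was below that median on all of them. The gene was not past a threshold in any of the 15 pairs of arrays compared.

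Mmp13, Mmp12 and Mmp8 lie in 1 run of 10 metalloproteinase genes on chromosome 9, of which 9 were measured. In the order Mmp13, Mmp12, Mmp1b, Mmp3, Mmp1a, Mmp10, Mmp8, Mmp27, Mmp20 and Mmp7, each of the 3 had its own pattern, as given above. Mmp1b, Mmp3, Mmp1a and Mmp20 were below the array median on all 7 arrays, with a highest value of 4.54 for Mmp3. Mmp7 (5.98 to 6.34) was above the median on all arrays and Mmp10 (5.36 to 6.16) on 6, and both lay near it. The collagenase, the elastase and the neutrophil collagenase were thus the members of the run that stood well above the median. Mmp27 was not analysed here.

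**Figure D2:**
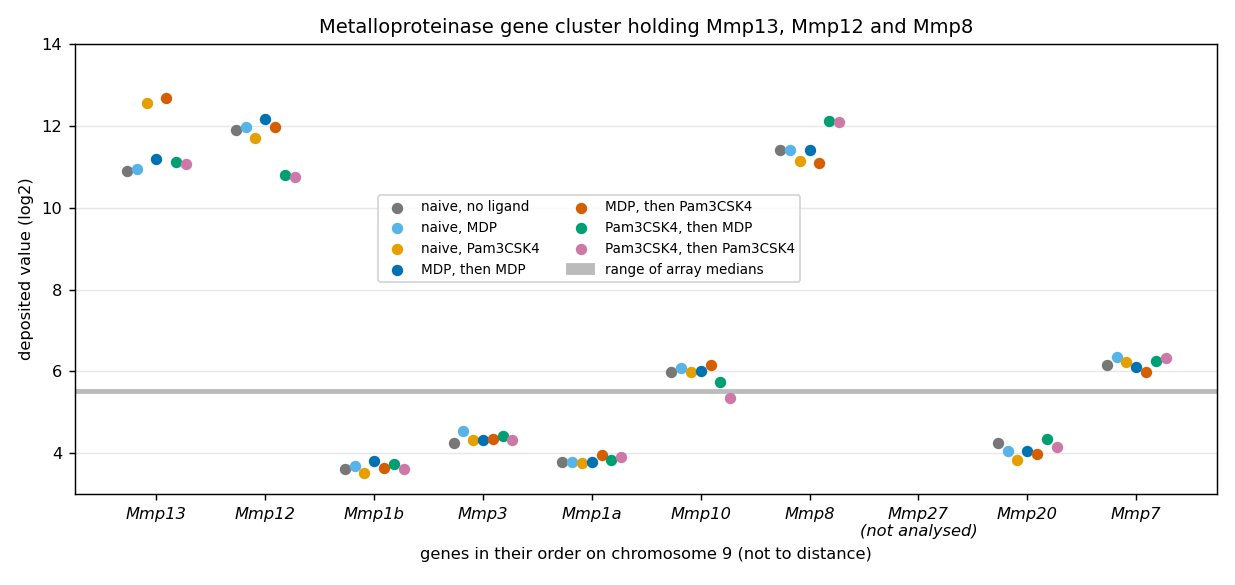
Deposited values (log2) of the chromosome 9 metalloproteinase genes on the 7 arrays, with genes placed in their order and not by distance, 1 point per array and a grey band for the range of the array medians. Mmp13, Mmp12 and Mmp8 lie above 10 on all arrays and differ in which arrays are high, while the other measured genes lie near or below the band. Heights of different genes come from different probes and are not compared.

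In naive cells MDP gave 1 of the 10 genes at least 3-fold over unstimulated, Mmp14, where 0.22% of all 18193 genes were, and none 3-fold lower (0.0055% of all). The other 9 lay between -0.53 (Thbs1) and 0.56 (Timp1), and the median of the 10 was 0.15 against 0.00 over all genes. Pam3CSK4 gave 5 of 10, against 1.28% of all genes: Mmp14 (40.2-fold), Timp1, Adamts4, Lox (3.37-fold) and Mmp13. At the bound for background Adamts4 drops out and 4 remain. None was 3-fold lower (0.605% of all), and the median was 1.54. With 32 added to the linear values, which damps low signals, 3 remained, Lox and Adamts4 dropping out at 1.44 and 1.41. With averaged probe sets 4 remained, Lox being at 0.86. Set against each other, Pam3CSK4 gave a value at least 2-fold over that with MDP for the same 5 genes (1.4% of all genes), with Mmp9 just short of it at 0.91. With averaged probe sets Lox (0.91) was short of this line and Mmp9 was just past it (1.00). Each ligand was used at 1 dose, and the comparison holds for these doses.

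MDP pretreatment left these genes close to their naive levels. With MDP as second ligand 1 of 10 was at least 2-fold lower, Mmp14 (0.291% of all genes), and none was 2-fold higher (0.385%). With Pam3CSK4 as second ligand none was past 2-fold in either direction (0.297% of all genes higher, 0.022% lower), and the differences ran from -0.10 (Timp1) to 0.72 (Lox), with a median of 0.25. Lox, Thbs1 and Mmp9 (0.65) were the 3 highest of these.

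Pam3CSK4 pretreatment split the list. When Pam3CSK4 came second, Mmp9, Lox and Thbs1, 3 of the 10, were past 2-fold above naive cells given Pam3CSK4 (2.41% of all genes), and 3 were past it below, Mmp13, Timp1 and Adamts4 (2.3%). Of the 5 genes past 3-fold at first contact by the deposited values, 3 met the study's definition of a tolerized gene, and Mmp14 and Lox were above their first-contact level. At the bound for background Adamts4 was at least 2.57-fold over unstimulated at first contact, which leaves Mmp13 and Timp1. Both parts of that definition use the same array of naive cells given Pam3CSK4. The share of all genes that met both parts is not given here, and nothing is read from the count. When MDP came second, 4 were at least 2-fold higher than in naive cells given MDP, Mmp9, Mmp14, Lox and Thbs1 (2.14% of all genes), and 1 was lower, Mmp12 (1.71%). The comparisons with naive cells given Pam3CSK4 share that array, as those with naive cells given MDP share theirs.

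**Figure D3:**
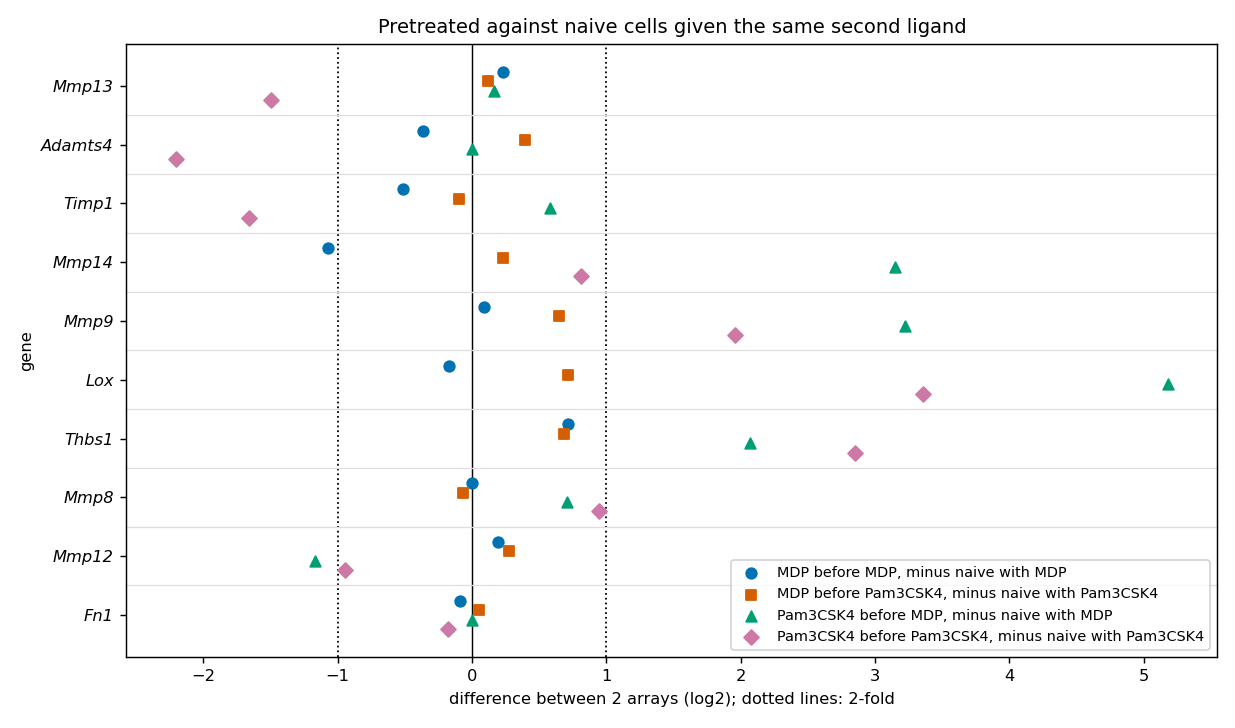
Difference (log2) between pretreated and naive cells given the same second ligand, for each of the 10 genes and the 4 combinations of pretreatment and second ligand, each point from 2 arrays, with dotted lines at 2-fold. Points for MDP pretreatment lie within 1.07 of 0, while those for Pam3CSK4 pretreatment run from -2.20 (Adamts4) to 5.18 (Lox).

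After Pam3CSK4 pretreatment the second ligand made little difference to these genes, as to nearly all genes measured. Pam3CSK4 before Pam3CSK4 and Pam3CSK4 before MDP differed by at most 0.36 (Mmp9), and none of the 10 was past 2-fold, against 0% of all genes on the higher side and 0.0055% on the lower. After MDP pretreatment, by contrast, Pam3CSK4 gave at least 2-fold more than MDP for 6 of the 10 (2.41% of all genes), Mmp14 (3.62), Adamts4 (at least 1.77), Lox (2.73), Timp1 (2.44), Mmp13 (1.49) and Mmp9 (1.47). The array of Pam3CSK4 before Pam3CSK4 also had the 18S ribosomal RNA control probe sets at a median 1.70 above unstimulated. On the array of Pam3CSK4 before MDP, with the nearly equal values of the 10 genes, they were at 0.48.

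Compared directly at the same second ligand, the 2 pretreatments went with different levels of several matrix genes. With Pam3CSK4 second, Pam3CSK4-pretreated cells had at least 2-fold more Lox (2.64), Thbs1 (2.16), Mmp9 (1.31) and Mmp8 (1.02, or 0.98 with the arrays centred on their medians) than MDP-pretreated cells, where 1.34% of all genes were 2-fold higher. They had at least 2-fold less Adamts4 (-1.72 or lower), Mmp13 (-1.62), Timp1 (-1.56) and Mmp12 (-1.22), where 2.41% of all genes were. In these genes MDP-pretreated cells given Pam3CSK4 were near naive cells given it, at 0.39, 0.12, -0.10 and 0.28 in the same order. With MDP second, 5 genes were higher in Pam3CSK4-pretreated cells (1.91% of all genes), Lox (5.35), Mmp14 (4.22), Mmp9 (3.13), Thbs1 (1.35) and Timp1 (1.09), and Mmp12 was lower (-1.36, against 2.06% of all genes).

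The arrays carried the markers of macrophages, with all 7 listed (Adgre1, Csf1r, Cd68, Itgam, Lyz2, Fcgr1 and Cd14) above the array median on every array. Mmp8 and Mmp9 are also products of neutrophils, so that list was set beside them. Of 10 measured neutrophil markers 8 were above the median on all arrays, and Mpo and Cxcr2 were below it on all. Their summed level, as log2 of the summed linear values, was 12.70 to 13.20 on the 5 arrays without Pam3CSK4 pretreatment and 13.56 and 13.50 on the 2 with it. S100a8 was at 10.98 to 11.34 on the 5 arrays and at 12.15 and 12.13 on the 2. S100a9 (11.46 and 11.37), Csf3r (11.48 and 11.46) and the granule gene Prtn3 (7.40 and 7.14) were also highest on these 2. The granule gene Elane stayed between 6.62 and 6.84 on all 7, and Ngp did not set the 2 apart. Ltf and Camp were lowest on these 2. Stromal cells are a usual source of Lox, Thbs1 and Fn1. Of 11 stromal markers 8, among them Col1a1, Col3a1 and Pdgfra, were below the median on all arrays. Acta2 (8.76 to 8.98), Col1a2 (6.18 to 6.51) and Dcn were above it on all 7. The summed level of the list was 9.67 to 9.76 on the 5 arrays and 10.11 and 10.07 on the 2. The proteoglycan gene Dcn was the marker that moved, from 6.28 to 6.69 on the 5 arrays to 8.34 and 8.03. The part of either cell type in the results on Mmp8, Mmp9, Lox and Thbs1 was not tested. Of 5 dendritic cell, 5 lymphocyte and 5 mast cell or erythroid markers, 3, 3 and 4 were below the median on all arrays.

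Beside the 10 genes, 90 of 101 other genes of matrix turnover in 8 lists were measured, and 61 of these were above the median on at least 1 array. With MDP in naive cells none was 3-fold from unstimulated, against 0.22% of all genes higher and 0.0055% lower. With Pam3CSK4 1 (1.11%) was, against 1.28% of all genes higher and 0.605% lower. It was the heparan sulfate proteoglycan Sdc4, a matrix receptor (5.07-fold higher). Sdc4 was at 11.16 unstimulated, 12.06 with MDP and 13.50 with Pam3CSK4 in naive cells, and at 11.29, 13.17, 11.25 and 11.05 for MDP before MDP, MDP before Pam3CSK4, Pam3CSK4 before MDP and Pam3CSK4 before Pam3CSK4. Its 2 highest arrays were those of Mmp13 and naive cells with MDP came next. None of the 11 other metalloproteinases, 5 inhibitors and 17 ADAM and ADAMTS proteases was past the threshold in naive cells or against them after pretreatment. MDP before MDP had 0 of the 90 genes 2-fold from naive cells given MDP, against 0.385% of all genes higher and 0.291% lower. At the shares of all genes, lists of this size would hold few or no such genes, and nothing is read from these counts.

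After Pam3CSK4 pretreatment a few genes of collagen processing were higher than in naive cells given the same ligand. Unlike Lox, none of this list was 3-fold over unstimulated on either array pretreated with Pam3CSK4. Of 12 measured, 2 (against 2.41% of all genes) exceeded naive cells by 2-fold or more when both were given Pam3CSK4, the lysyl oxidase relative Loxl3 (1.95) and the collagen prolyl hydroxylase subunit P4ha2 (1.21). With MDP second there were 3 (against 2.14%), Loxl3 (1.43), P4ha2 (1.38) and the lysyl hydroxylase Plod2 (1.20), and none was 2-fold lower in either case. In naive cells given either ligand, these 3 genes were below their unstimulated level. Loxl3 was at 8.38 unstimulated and 7.65 with Pam3CSK4, and Plod2 at 6.85 unstimulated and 6.26 with MDP. Some of the 12 lay on the other side short of 2-fold. By the deposited values the furthest were Pcolce, a procollagen protease enhancer, with Pam3CSK4 (-0.53) and the transglutaminase Tgm2 with MDP (-0.68). The pretreated value of Pcolce (5.29) was below its array's median (5.54), so that its difference is not fully measured. The list medians were 0.24 and 0.16, against 0.01 and 0.00 over all genes. The collagen-degrading cathepsin Ctsk was 2-fold higher in both (1.38 and 1.01), the one of 7 cathepsins to be so. Among 18 matrix proteins, Fbln5, fibulin 5, which organises elastic fibres, was at least 3.99-fold lower with Pam3CSK4 and 3.00-fold lower with MDP, and the proteoglycan Vcan was higher with MDP by at least 0.76, short of 2-fold at the bound. Of 14 matrix receptors, the collagen-binding mannose receptor Mrc1 (-1.36 and -1.61) and the integrin chain Itgav (-1.09 and -1.15) were 2-fold lower in both, and Sdc4 was with Pam3CSK4 (-2.46). Over the 90 genes 3 (3.33%) were higher and 4 (4.44%) lower with Pam3CSK4 second, against 2.41% and 2.3% of all genes, and 5 (5.56%) and 3 (3.33%) with MDP, against 2.14% and 1.71%. Vcan drops out of the 5 at the bound. These shares rest on few genes, and nothing is read from their distance to those of all genes.

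The genes most like a member over the 7 arrays were sought for the 3 members of widest range, Mmp14, Lox and Mmp9, among 497 other genes with a range of at least 2 on the log2 scale. For Mmp14 they were the growth factor receptor Met (Pearson r = 0.986), the transcription factor Spic (0.986) and the chemokine Cxcl3 (0.985). For Lox they were the siderophore-binding Lcn2 (0.996), the chemokine Cxcl5 (0.995) and the lipid-binding protein gene Osbpl3 (0.992), and for Mmp9 the chemokine Ccl8 (0.994), the formyl peptide receptor Fpr2 (0.993) and the membrane protein gene Tmem176a (0.992). The difference between the second and the first exposure to Pam3CSK4 was smaller for the genes like Mmp14 than for the others. It was 0.25, 0.77 and 0.00 for Met, Spic and Cxcl3, between 1.95 and 3.20 for the genes like Lox, and between 1.58 and 3.63 for those like Mmp9. The members themselves were at 0.81 (Mmp14), 3.36 (Lox) and 1.96 (Mmp9). Because the genes were picked for likeness over these same arrays, this order is no separate result. Such an r over 7 arrays of single cultures is a description, since the arrays share 2 ligands and fall into few levels.

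**Figure D4:**
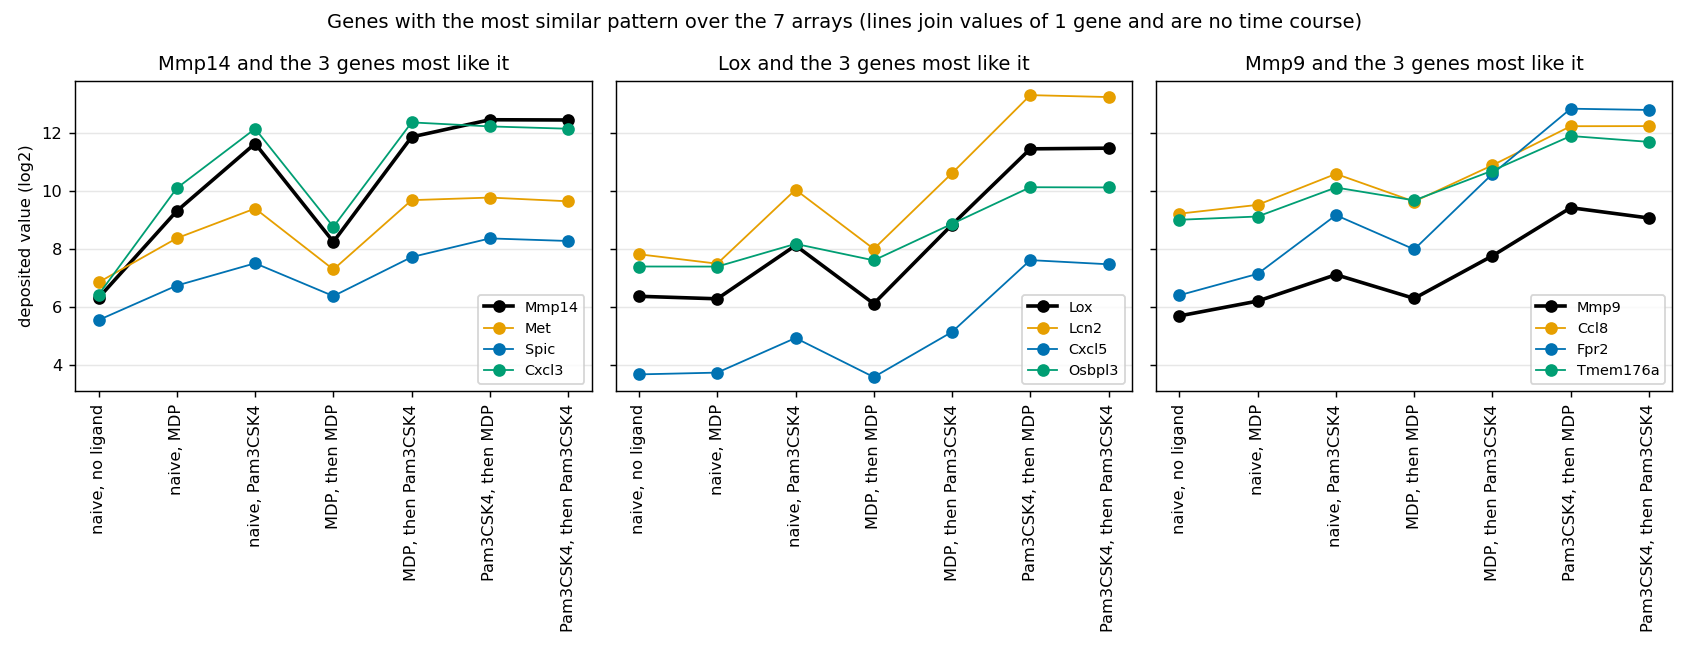
Deposited values (log2) on the 7 arrays of Mmp14, Lox and Mmp9 (black) and, for each, the 3 genes with the highest Pearson r, with lines that join the values of 1 gene and stand for no time order. The genes like Mmp14 are about as high at first contact with Pam3CSK4 as after pretreatment with it, whereas those like Lox and Mmp9 are highest on the 2 arrays pretreated with Pam3CSK4. The genes were picked for likeness over these same arrays.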

How the data were processed

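Single Affymetrix arrays of 7 macrophage cultures were used, each labelled replicate 2. The number implies another replicate, which is not among the 7 arrays and is not described in the labels used here. The deposited values are on the log2 scale per probe set, and the submitters' processing notes name RMA and the affy package for them. Versions and the arrays normalized together are not given in the sources used here. They ran from 2.95 to 15.1 over 45101 probe sets, with array medians between 5.48 and 5.55, and scale and direction are known, with no centring seen.

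Symbols came from the platform table, 34945 probe sets had 1 symbol, and each of 18193 genes was read from its probe set of highest mean. Differences were taken in 15 pairs of arrays and counted past 3-fold over unstimulated and 2-fold otherwise, as the series text sets them, with no p-value. A value below its array's median was moved up to it, which gives a bound. Precision is limited by the number of arrays. The members, lists, bounds and thresholds were chosen with earlier results of these data known. Genes named beyond the 10 are list genes past the threshold (up to 2 per direction and list), markers, and the 3 genes most like each of 3 members. The calls were tested on simulated data. Alternatives were median and housekeeping centring, cyclic loess (limma 3.58.1 in R 4.3.3, span 0.7, 3 iterations), averaged probe sets, only the more specific probe sets, 32 added to linear values, a 75th percentile filter and other thresholds. Python 3.11.15, numpy 2.4.6, pandas 2.3.3 and matplotlib 3.10.9 were used.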

Additional observations from a re-analysis of the deposited data

Results flagged for a closer look

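Timp1 after Pam3CSK4 pretreatment differed in opposite directions from naive cells given the same ligand, by 0.58 with MDP and by -1.66 with Pam3CSK4 (log2). The 2 pretreated arrays were close to each other, at 9.25 with MDP and 9.04 with Pam3CSK4. The naive arrays they were compared with lay apart, at 8.67 with MDP and 10.70 with Pam3CSK4. Timp1 was the one of the 10 genes with opposite signs and at least 0.5 in both, and the difference was not tested.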

How the results depend on the processing

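Counts of members past the threshold in the 6 comparisons of naive and pretreated cells kept to within 1.5 times in 90 of 96 recalculations. Adding 32 to the linear values left 3 genes 3-fold over unstimulated for Pam3CSK4 in naive cells, and 0 at 2-fold lower for MDP before MDP. That last count was also 0 with the mean of the probe sets and at a threshold of 3-fold. At 3-fold 0 were lower for Pam3CSK4 before MDP, and at 2-fold 1 (Thbs1) was lower with Pam3CSK4 in naive cells. Of 900 recalculated differences of single genes 882 kept their side of the threshold, 10 lost it, 8 passed it, and none of those past it changed sign. Centring on housekeeping genes moved the median of all genes by up to 0.13, and Thbs1 was then past 3-fold over unstimulated for Pam3CSK4 before MDP (1.66) and before Pam3CSK4 (1.66), as it was with cyclic loess and with the mean of its probe sets. No paired analysis was possible because each group has 1 array, all with the same replicate number, and no replicate could be left out. The cause of these changes was not tested. Signal near background limits Adamts4, Fn1 and the low values of Mmp9.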
